A study of Homo sapiens with 12 samples.

Results

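The genes described here encode NRF2, its repressor KEAP1 and the proteins that work most closely with them. They were taken by name, by a rule that uses no measured value though earlier results of these data were known, and comprise NFE2L2, NFE2L1, KEAP1, CUL3, RBX1, SQSTM1, BACH1, MAFF, MAFG and MAFK, which are 10 of the 57815 genes listed in each expression file. RNA was sequenced from 12 libraries of the human non-small cell lung cancer lines A549, H2023 and H460, all labelled as KEAP1 mutation positive, so that no library came from a line with a normal KEAP1 gene. A549 and H2023 are labelled lung adenocarcinoma and H460 large cell carcinoma. In each line, 2 libraries received control siRNA and 2 received NRF2 siRNA, of which 1 carried siRNA 28 and the other siRNA 30, and cells were harvested after 48 h. The pairs of NRF2 siRNA libraries therefore differ in the reagent, and each siRNA has a single library per line. A549 libraries were depleted of ribosomal RNA and its cells grew in high-glucose medium, whereas H2023 and H460 libraries were polyA-selected and the cells grew in low-glucose medium, so levels in A549 were not compared with the other lines. Values are FPKM, fragments scaled to transcript length and library size, which allow genes to be ordered within a library.

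NRF2 is a transcription factor that induces antioxidant, detoxifying and metabolic enzymes. In unstressed cells KEAP1 holds NRF2 and, together with the scaffold CUL3 and the RING protein RBX1, forms a ubiquitin ligase that sends it to the proteasome. Loss of KEAP1 function, frequent in lung cancer, leaves NRF2 stable in the nucleus, where it pairs with a small MAF protein on antioxidant response elements. BACH1 competes for the same sites as a repressor, SQSTM1 (p62) sequesters KEAP1 for autophagy, and NFE2L1 is the related factor that controls proteasome genes. The values were read for the response of this circuit to NRF2 siRNA.

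After NRF2 siRNA, transcripts of KEAP1, SQSTM1 and MAFG fell together with NFE2L2 in the average over the lines, whereas CUL3, RBX1, NFE2L1 and MAFK did not pass the test. The average effect, from limma on log2(FPKM + 1) over all 12 libraries with Benjamini-Hochberg adjustment, called 5 of 9 tested members lower and 0 higher, while 14.5% of the 11571 genes tested were called lower. The fifth was BACH1, which had opposite signs in H2023 and H460 and lost its call in 6 of 12 fits that left out 1 library. Over those fits 4 to 6 members were called lower, and in simulated data this fit made more false calls than its threshold states. Rescaling without mitochondrial transcripts moved the genes called from 1674 lower and 1763 higher to 1182 and 1831, and left 4 members lower. Within single lines, members called lower numbered 2 of 10 in A549, against 0.554% of all genes tested there, 2 of 10 in H2023, against 0.583%, and 4 of 9 in H460, against 6.86%. The members called were NFE2L2 and SQSTM1 in A549, NFE2L2 and MAFG in H2023, and NFE2L2, KEAP1, SQSTM1 and MAFG in H460. Without either H460 control library, 0 members passed in that line, and 4 or 5 members had an unadjusted p under 0.05 by limma. Without H2023 control replicate 0, 0 passed in H2023 and 5 had an unadjusted p under 0.05, whereas 5 passed there without either NRF2 siRNA library, in the 12-library fit and with the replicate block, KEAP1, SQSTM1 and BACH1 being the added members. Without A549 control replicate 0, 1 member passed in A549.

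**Figure D1:**
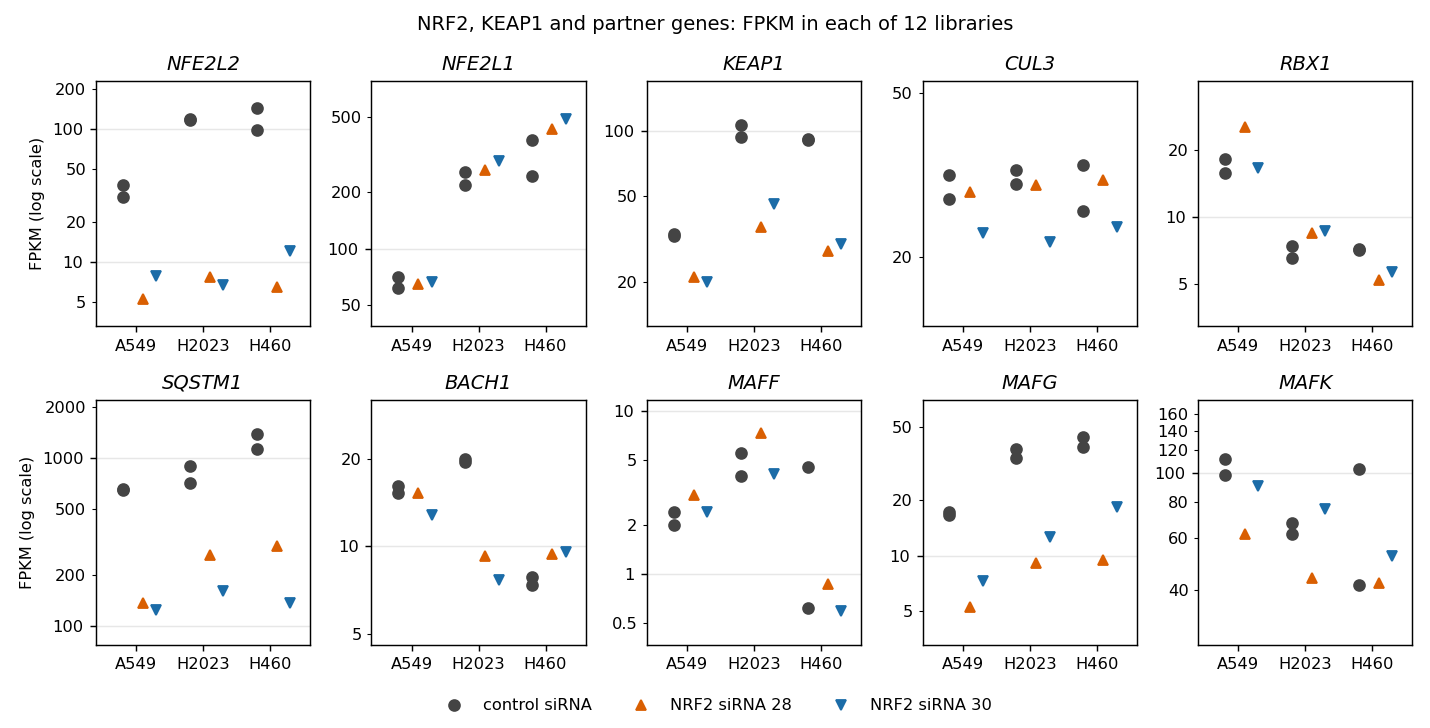
FPKM (log scale) of each gene in every library, by line; circles are control siRNA libraries and triangles the NRF2 siRNA libraries, 28 pointing up and 30 pointing down. NFE2L2, KEAP1, SQSTM1 and MAFG lie below their controls in all 3 lines, and H460 control libraries stand far apart for MAFF and MAFK.

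**Figure D2:**
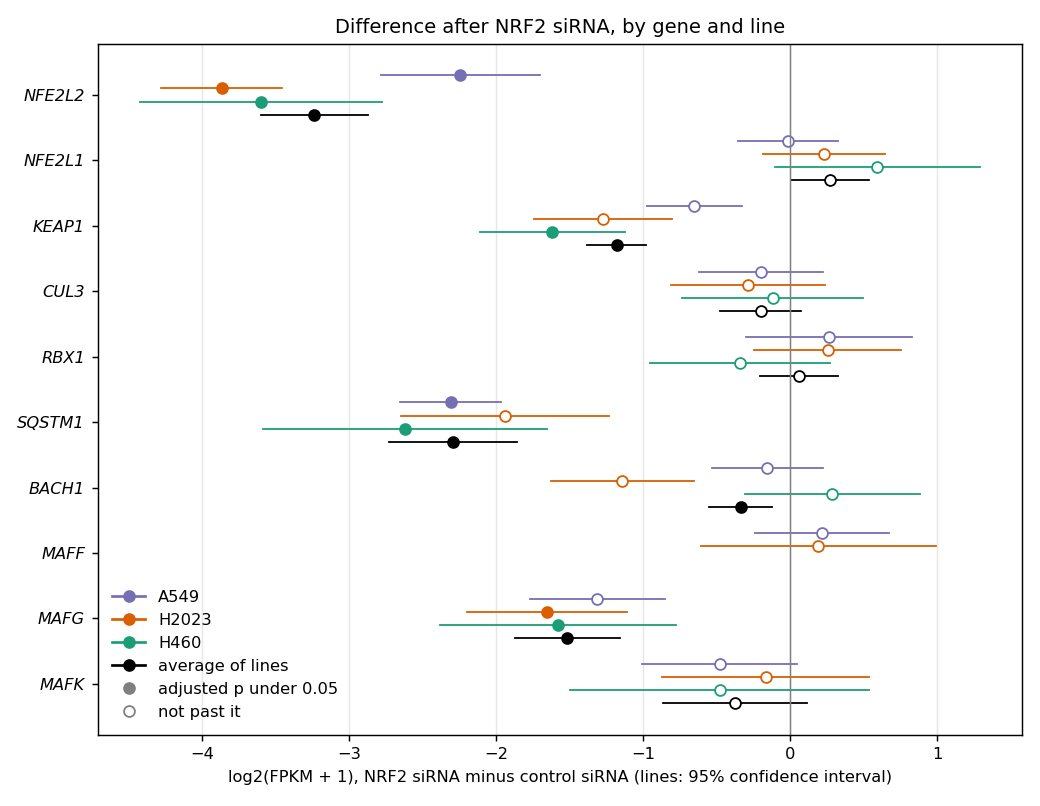
Difference in log2(FPKM + 1) between NRF2 siRNA and control siRNA for each gene in each line and averaged over lines, with 95% confidence intervals; filled points have an adjusted p under 0.05. NFE2L2, SQSTM1, MAFG and KEAP1 have average values of -3.24, -2.29, -1.51 and -1.18, and CUL3 and RBX1 have intervals that include 0.

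The libraries held 12732 to 13909 genes at 1 FPKM or more, and the files give no read totals per library. The authors' mean normalised count per gene, from 34.6 for RBX1 in H460 to 25491 for SQSTM1 in A549, served as a guide to depth. Mitochondrial transcripts took 0.892% to 1.56% of FPKM in A549, 11.97% to 22.8% in H2023 and 8.56% to 26.0% in H460. In H460 this share was 8.56% and 13.1% in the control libraries and 20.8% and 26.0% in the NRF2 siRNA libraries, so it moved with the treatment. In H2023 it was 11.97% and 18.1% in control libraries and 17.3% and 22.8% in NRF2 siRNA libraries, higher with NRF2 siRNA within each replicate number, though the groups overlapped. Rescaling each library without these transcripts took the median log2 difference of all genes in H460 from -0.0083 to 0.12, and the genes called there from 922 lower and 957 higher to 585 lower and 1194 higher, while NFE2L2, KEAP1, SQSTM1 and MAFG stayed lower at -3.46, -1.47, -2.47 and -1.43. All 6 epithelial markers examined reached 1 FPKM in every library of A549 and H2023, and 4 of 6 did so in H460, where EPCAM and CDH1 lay near 1 FPKM or below. Of 4 lung adenocarcinoma markers, NKX2-1, NAPSA, SFTPB and SFTPC, all 4 stayed under 1 FPKM in A549 and H460 and 3 did so in H2023. Of 6 markers of blood, vessel and stroma measured, 5 stayed under 1 FPKM in every library of A549, 4 in H2023 and 3 in H460. The other 1, 2 and 3 reached 1 FPKM in every library, with highest values of 30.7, 57.7 and 39.2 FPKM in these lines. The study's methods call the control libraries biological duplicates and do not say more of how they were obtained, so p-values measure the spread between these libraries. In H2023 and H460 the mitochondrial share was also higher in replicate 1 than in replicate 0 of both groups.

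NFE2L2 (ENSG00000116044.11, GRCh37 chromosome 2, 178083395 to 178257484, minus strand) encodes NRF2 and is the siRNA target. In A549 its FPKM was 38.2 and 30.9 in the control libraries, 5.31 with siRNA 28 and 7.84 with siRNA 30. In H2023 it was 120.0 and 118 in controls, 7.74 with siRNA 28 and 6.80 with siRNA 30. In H460 it was 144 and 99.5 in controls, 6.54 with siRNA 28 and 12.2 with siRNA 30. All 6 NRF2 siRNA libraries lay below every control of their line, and the mean left was 19.0%, 6.10% and 7.68% of the control mean in A549, H2023 and H460. The log2 difference was -2.24 ± 0.216 in A549 (SE, 2 libraries per group; limma adjusted p = 0.0178). It was -3.86 ± 0.163 (adjusted p = 0.00529) for H2023 and -3.60 ± 0.341 (adjusted p = 0.0111) for H460. The F test of a difference between lines gave an adjusted p of 0.0806, and it passed without either NRF2 siRNA library of H460. The H460 effect minus the A549 effect was -1.36 ± 0.401 (limma adjusted p = 0.0877). Over fits that left out 1 library this contrast ranged from -1.76 to -0.95. The A549 call was lost without A549 control replicate 0, at -2.09 with an adjusted p of 0.0890, the H2023 call without H2023 control replicate 0 (adjusted p = 0.0551), and the H460 call without either of its controls (0.107 and 0.0627). With no filter on low FPKM the calls of all 3 lines were lost, at 0.235, 0.165 and 0.113 in A549, H2023 and H460. HNRNPA3, at 18.1 to 415 FPKM, and AGPS, at 28.1 to 66.1 FPKM, overlap this locus on the opposite strand, and although the methods name a strand-specific SureSelect kit, how strand entered the count was not given in the sources used here.

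KEAP1 (ENSG00000079999.9, chromosome 19, 10596801 to 10614234, minus strand), the substrate adaptor that binds NRF2, was lower in every NRF2 siRNA library than in either control of its line. In A549 the controls had 33.4 and 32.5 FPKM, siRNA 28 gave 21.1 and siRNA 30 gave 20.2. In H2023 the controls had 106 and 93.3 FPKM, siRNA 28 gave 35.9 and siRNA 30 gave 45.8. In H460 the controls had 91.6 and 90.4 FPKM, siRNA 28 gave 28.02 and siRNA 30 gave 30.02. The groups did not overlap, and the mean left was 62.6% of control in A549, 41.1% in H2023 and 31.9% in H460. KEAP1 passed in H460 (log2 difference -1.62 ± 0.205, limma adjusted p = 0.0158) and missed the threshold in A549, at -0.65 ± 0.129 with 0.145, and in H2023, at -1.27 ± 0.187 with 0.0622. Averaged over lines the difference was -1.18 ± 0.0901 (adjusted p = 2.77e-05), and it passed in each of 12 fits that left out 1 library, with values from -1.24 to -1.12. The H460 effect minus the A549 effect was -0.96 ± 0.221 on the log2 scale (adjusted p = 0.0474), in a contrast that called 1.71% of genes lower and whose 362 calls in either direction ranged from 0 to 979 when 1 library was left out. Rescaling without mitochondrial transcripts took that contrast to -0.73 with an adjusted p of 0.147, and left KEAP1 in H460 at -1.47. The contrast also lost its call without any A549 library, either control of H2023 or H460, or the H460 siRNA 30 library, at an adjusted p of up to 0.175, and with median-of-ratios rescaling (0.0567), no trend (0.0605) or the replicate number as a block (0.0695).

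SQSTM1 (ENSG00000161011.15, chromosome 5, 179233398 to 179265078, plus strand), the autophagy receptor whose protein binds KEAP1, was the most abundant of these genes in the controls of all 3 lines. In A549 it fell from 642 and 656 FPKM to 136 with siRNA 28 and 124 with siRNA 30. In H2023 the controls had 897 and 708 FPKM, siRNA 28 gave 265 and siRNA 30 gave 161. In H460 the controls had 1392 and 1127 FPKM, siRNA 28 gave 301 and siRNA 30 gave 137. No NRF2 siRNA library reached a control, and the means were 20.1%, 26.6% and 17.4% of control in A549, H2023 and H460. The log2 difference passed in A549 (-2.31 ± 0.137, limma adjusted p = 0.00338) and H460 (-2.62 ± 0.401, adjusted p = 0.0195) and missed the threshold in H2023 (-1.94 ± 0.282, adjusted p = 0.0608). The average was -2.29 ± 0.196 (adjusted p = 5.54e-05), and it passed without each of the 12 libraries in turn, at -2.48 to -2.10. In H460 the adjusted p rose to at most 0.155 without 1 of its controls. MGAT4B and MRNIP overlap the locus on the opposite strand, at 59.3 to 191 and 10.5 to 27.0 FPKM.

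MAFG (ENSG00000197063.6, chromosome 17, 79876146 to 79885611, minus strand) encodes a small MAF protein, the DNA-binding partner of NRF2 and of BACH1. In A549 the controls had 16.7 and 17.2 FPKM, siRNA 28 gave 5.27 and siRNA 30 gave 7.32. In H2023 the controls had 34.0 and 38.0 FPKM, siRNA 28 gave 9.08 and siRNA 30 gave 12.7. In H460 the controls had 44.2 and 38.9 FPKM, siRNA 28 gave 9.45 and siRNA 30 gave 18.4. Controls and NRF2 siRNA libraries did not overlap in any line, and siRNA 28 gave the lower value in each. The difference was -1.31 ± 0.184 in A549, which missed the threshold (limma adjusted p = 0.0662). It passed there where 1 FPKM was required in every library (limma adjusted p = 0.0367). Without siRNA 28 or siRNA 30 the A549 value was -1.11 or -1.52. The difference was -1.58 ± 0.333 in H460 (adjusted p = 0.0332). In H2023 it was -1.65 ± 0.217, just past the threshold (adjusted p = 0.04998), and the call was lost without either H2023 control, at 0.347 and 0.370, with the pseudocount of 0.1 (0.0565), with rescaling without mitochondrial transcripts (0.0597), with no trend (0.0727) and with no filter (0.221). The average was -1.51 ± 0.162 (adjusted p = 0.000207) and passed without each library in turn, at -1.66 to -1.37. SIRT7 overlaps the locus on the same strand at 10.9 to 29.2 FPKM, so reads of the shared stretch could be assigned to either gene.

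Short stretches of sequence around these genes are shown because KEAP1, SQSTM1 and MAFG moved together with the factor that binds antioxidant response elements. The core TGACNNNGC, read on both strands, was found in 13.35% of 35116 RefSeq promoters (GRCh38.p14, 250 bases before to 50 after a start). Of 18 promoters of 9 members, 3 held it (16.7%), a share near that of all promoters. KEAP1, RBX1 and MAFF had a match in 1 promoter each, NFE2L2, NFE2L1, CUL3, SQSTM1, BACH1 and MAFG had none, and MAFK had no entry. The KEAP1 promoter held 2 matches, 50 and 27 bases before the start, printed 5′ to 3′ on the strand of the match with the core in capitals.
KEAP1 match at -50, chr19:10502807-10502835, minus strand: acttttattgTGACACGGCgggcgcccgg
KEAP1 match at -27, chr19:10502784-10502812, plus strand: caggtcaccaTGACTAAGCagagccgggc
A search for the narrower form TGACTCAGC, of the same length with NNN fixed as TCA, was added after the values were known. It covered both strands within 2000 bases of the annotated start in GRCh37. TGACTCAGC was found in 4.505% of 19867 such windows of protein-coding genes, and every TGACTCAGC is also a TGACNNNGC. The core TGACNNNGC was found in 76.73% of these windows, and it had 2 or 3 matches in that of each member except NFE2L1. SQSTM1 had 2 TGACTCAGC matches upstream of its canonical start, which lie inside a longer SQSTM1 transcript. MAFG, MAFK and BACH1 had 1 TGACTCAGC match each within an intron of the canonical transcript. NFE2L2, NFE2L1, KEAP1, CUL3, RBX1 and MAFF had no TGACTCAGC in these windows.
SQSTM1 match at -348, chr5:179247543-179247571, minus strand: ggcctggccaTGACTCAGCaatatcctca
SQSTM1 match at -1316, chr5:179246575-179246603, minus strand: tggccaagcgTGACTCAGCagcccaggcg
MAFG match at 764, chr17:79884833-79884861, plus strand: ctcacgctgaTGACTCAGCaagtctccct
MAFK match at 278, chr7:1570602-1570630, minus strand: caggcggccgTGACTCAGCggccaggtag
BACH1 match at 1398, chr21:30672627-30672655, minus strand: ctggggcgaaTGACTCAGCaacccaactt
The match is a description of the letters, and binding was not measured in these libraries.

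BACH1 (ENSG00000156273.11, chromosome 21, 30566392 to 31003071, plus strand), the repressor that competes for NRF2 sites, lay lower after NRF2 siRNA in H2023 and higher in H460. In H2023 it had 20.0 and 19.5 FPKM in controls, 9.26 with siRNA 28 and 7.62 with siRNA 30, which is 42.7% of the control mean. In H460 it had 7.84 and 7.33 FPKM in controls, 9.41 with siRNA 28 and 9.53 with siRNA 30, above both controls. In A549 it had 15.2 and 16.1 FPKM in controls, 15.2 with siRNA 28 and 12.8 with siRNA 30, of which the first lay at the lower control. No line passed in the test of its own 4 libraries, with log2 differences of -1.14 ± 0.193 in H2023, 0.29 ± 0.247 in H460 and -0.15 ± 0.151 in A549 (limma adjusted p = 0.0840, 0.458 and 0.716). BACH1 in H2023 passed in the 12-library fit (adjusted p = 0.00472), with the replicate block (0.0329) and without either NRF2 siRNA library (0.00494 and 0.0134). The F test of a difference between lines passed for BACH1 alone among 9 members (adjusted p = 0.0327), against 2.51% of all genes, and missed the threshold with the replicate block (0.0619), and the H460 effect was 1.43 ± 0.236 higher than the H2023 effect (adjusted p = 0.0196), against 1.3% called higher. That contrast called 384 genes in either direction, and 10 to 1079 when 1 library was left out. The F test kept its call in 3 of 12 fits that left out 1 library, those without the H2023 siRNA 28 library or without either NRF2 siRNA library of H460, and its adjusted p ranged from 0.0257 to 0.108. The contrast of H460 with H2023 kept its call in 9 of 12 and lost it without either H2023 control or H460 control replicate 0, at up to 0.0923, with values between 1.30 and 1.55. The average of -0.34 ± 0.0962 (adjusted p = 0.0248) covers lines of opposite sign. It lost its call in 6 of 12 such fits, those without either control of A549 or H2023, the A549 siRNA 30 library or H460 control replicate 0, at up to 0.0745, and with rescaling without mitochondrial transcripts (0.0600).

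The balance of NFE2L2 to BACH1 in FPKM turned over in most NRF2 siRNA libraries. NFE2L2 is the siRNA target, so its own fall lowers this ratio, which is no separate result. The ratio was 2.51 and 1.92 in A549 controls, 6.01 and 6.06 in H2023 controls and 18.4 and 13.6 in H460 controls. With siRNA 28 it was 0.349, 0.835 and 0.695 in A549, H2023 and H460. With siRNA 30 it was 0.612, 0.893 and 1.28, so that NFE2L2 stayed above BACH1 in the H460 library with siRNA 30 only. The ratios of transcripts are not ratios of protein, and NRF2 is controlled largely at the level of protein stability.

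**Figure D3:**
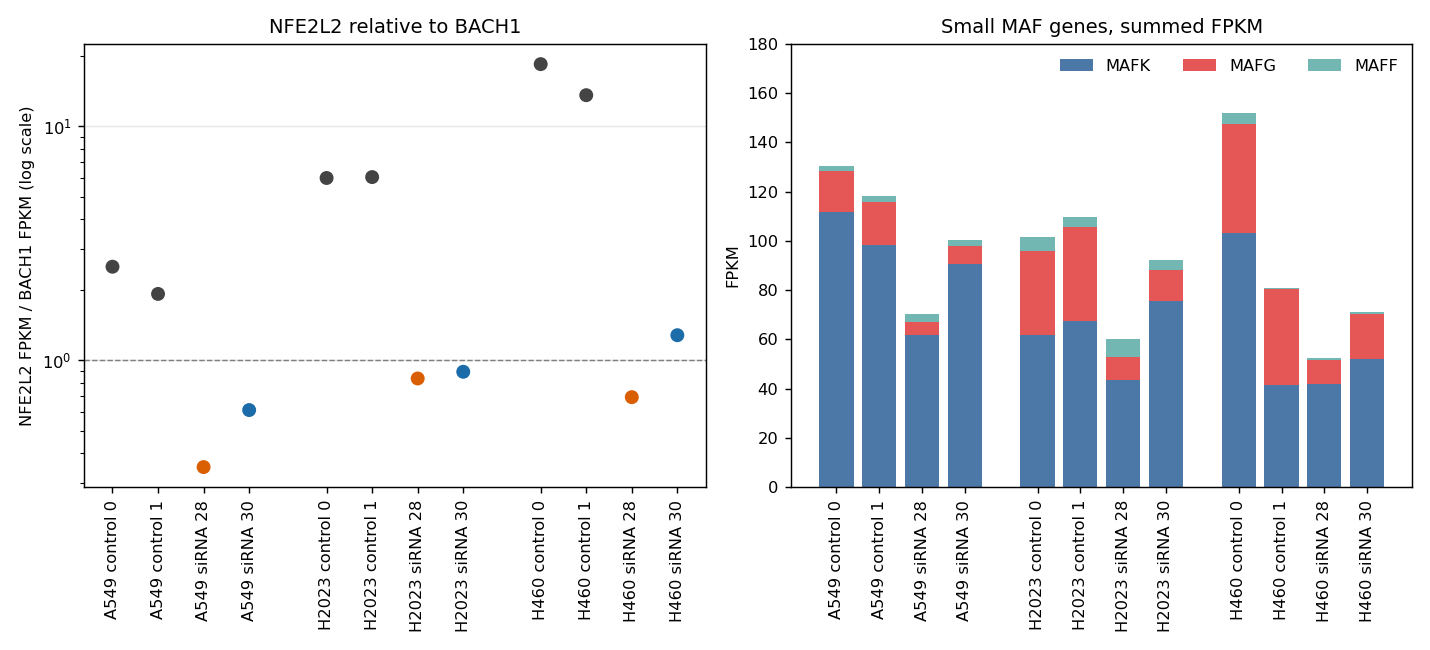
Left, NFE2L2 FPKM divided by BACH1 FPKM (log scale) in each library, with a dashed line at 1; right, summed FPKM of MAFK, MAFG and MAFF in each library. The ratio lies above 1 in every control library, and MAFG takes a smaller part of the small MAF sum in each NRF2 siRNA library than in the controls of its line.

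MAFK (ENSG00000198517.5, chromosome 7, 1570338 to 1582679, plus strand) was the most abundant of the small MAF genes in every library. In A549 it had 112 and 98.4 FPKM in controls, 61.9 with siRNA 28 and 90.7 with siRNA 30. In H2023 it had 61.9 and 67.5 FPKM in controls, 43.7 with siRNA 28 and 75.7 with siRNA 30. In H460 it had 103 and 41.5 FPKM in controls, 42.1 with siRNA 28 and 52.0 with siRNA 30. The groups overlapped in H2023 and H460, where 1 H460 control stood far above the other 3 libraries. Its average difference was -0.37 ± 0.221 (limma adjusted p = 0.229), with a 95% interval from -0.87 to 0.12, and without H460 control replicate 0 the H460 value turned from -0.48 to 0.17. Without H460 control replicate 1 the average was -0.59 and passed (adjusted p = 0.0343), and over fits that left out 1 library it ranged from -0.59 to -0.16. TMEM184A overlaps the locus on the opposite strand at 2.83 to 23.6 FPKM.

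MAFF (ENSG00000185022.7, chromosome 22, 38596774 to 38612514, plus strand) was the scarcest small MAF gene. In A549 it had 2.01 and 2.42 FPKM in controls, 3.07 with siRNA 28 and 2.42 with siRNA 30. In H2023 it had 5.53 and 4.04 FPKM in controls, 7.40 with siRNA 28 and 4.11 with siRNA 30. In H460 it had 4.57 and 0.618 FPKM in controls, 0.871 with siRNA 28 and 0.592 with siRNA 30, so only 1 library reached 1 FPKM and the gene was not tested there or in any comparison of all 12 libraries. It was not called in A549 (0.22 ± 0.183, limma adjusted p = 0.663) or H2023 (0.19 ± 0.319, adjusted p = 0.814). As a share of the summed small MAF FPKM, MAFG made up 33.5% and 34.7% in H2023 controls and 15.1% and 13.7% with NRF2 siRNA, and 12.8% and 14.6% against 7.50% and 7.29% in A549. In H460 it was 29.1% and 48.0% in controls and 18.0% and 25.9% with NRF2 siRNA, and MAFK took 51.3% to 90.3% of the sum over all libraries.

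CUL3 (ENSG00000036257.8, chromosome 2, 225334867 to 225450114, minus strand), the scaffold of the ligase, was not called in any single line. In A549 it had 31.8 and 27.7 FPKM in controls, 28.8 with siRNA 28 and 22.9 with siRNA 30. In H2023 it had 32.7 and 30.2 FPKM in controls, 29.9 with siRNA 28 and 21.8 with siRNA 30. In H460 it had 25.9 and 33.5 FPKM in controls, 30.9 with siRNA 28 and 23.7 with siRNA 30. The siRNA 30 library had the lowest value in each line, while siRNA 28 lay within or next to the controls. The average difference was -0.20 ± 0.125 (limma adjusted p = 0.251), with an interval from -0.48 to 0.076.

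RBX1 (ENSG00000100387.8, chromosome 22, 41347351 to 41369313, plus strand), the RING subunit of the ligase, did not pass the test in any line. In A549 it had 18.2 and 15.7 FPKM in controls, 25.3 with siRNA 28 and 16.5 with siRNA 30. In H2023 it had 7.44 and 6.59 FPKM in controls and 8.45 and 8.67 with the siRNAs, above both controls. In H460 it had 7.20 and 7.16 FPKM in controls and 5.22 and 5.71 with the siRNAs, below both. The average was 0.060 ± 0.119 (limma adjusted p = 0.735), the F test of a difference between lines gave an adjusted p of 0.340, and the authors' mean normalised count for RBX1 was 280, 43.8 and 34.6 in A549, H2023 and H460, the lowest of the 10 members in the last 2 lines.

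NFE2L1 (ENSG00000082641.11, chromosome 17, 46125691 to 46138907, plus strand), the NRF2 relative that responds to proteasome shortage, stood above both controls after NRF2 siRNA in H2023 and H460. In A549 it had 70.9 and 62.2 FPKM in controls, 65.0 with siRNA 28 and 66.7 with siRNA 30. In H2023 it had 219 and 255 FPKM in controls, 263 with siRNA 28 and 292 with siRNA 30. In H460 it had 380 and 242 FPKM in controls, 433 with siRNA 28 and 486 with siRNA 30. The differences of -0.013 ± 0.136, 0.23 ± 0.165 and 0.59 ± 0.290 in A549, H2023 and H460 did not pass (limma adjusted p = 0.980, 0.537 and 0.207). Neither did the average of 0.27 ± 0.120 (adjusted p = 0.114), with a 95% interval from 0.0048 to 0.54. Without H460 control replicate 0 the average was 0.38 and passed (adjusted p = 0.0235), and over fits that left out 1 library it ranged from 0.16 to 0.38. In the fit of all 12 libraries the H460 value had an adjusted p of 0.0493. As NFE2L2 fell, the ratio of NFE2L1 to NFE2L2 went from between 1.82 and 2.63 in the controls to between 8.51 and 66.2 with NRF2 siRNA.

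In control libraries the order of levels was similar in H2023 and H460. SQSTM1 stood first with means of 802 ± 134 and 1260 ± 188 FPKM (SD, n = 2), followed by NFE2L1 with 237 ± 25.9 and 311 ± 97.5 FPKM, NFE2L2 with 119 ± 1.06 and 122 ± 31.7 FPKM and KEAP1 with 99.4 ± 8.70 and 91.0 ± 0.889 FPKM. MAFK, MAFG, CUL3 and BACH1 followed, and RBX1 and MAFF came last. The ranges of the controls overlapped between MAFK and each of NFE2L2, KEAP1 and MAFG in H460. In A549 SQSTM1 stood first with 649 ± 9.88 FPKM, MAFK second with 105 ± 9.45 FPKM, and the pairs NFE2L2 and KEAP1, NFE2L2 and CUL3, MAFG and RBX1, and RBX1 and BACH1 overlapped. Between the polyA-selected lines, controls of H460 had lower BACH1 than controls of H2023 (log2 difference -1.27 ± 0.157, limma adjusted p = 0.00180) and higher SQSTM1 (0.65 ± 0.209, adjusted p = 0.0445), which made 1 of 10 members lower against 24.2% of all genes and 1 higher against 24.6%. BACH1 passed without each of the 4 control libraries, whereas SQSTM1 passed without 1 of them and lost its call without H2023 control replicate 0 (adjusted p = 0.0616), H2023 control replicate 1 (0.213) or H460 control replicate 0 (0.138). NFE2L2 differed by 0.0082 ± 0.196 (adjusted p = 0.977), with an interval from -0.47 to 0.49.

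Each siRNA was next set against the controls over the 3 lines, with line as a covariate. With siRNA 28, 4 of 9 members were called lower, against 7.5% of all genes, and with siRNA 30, 5 of 9 were, against 10.2%. Rescaling without mitochondrial transcripts moved the siRNA 30 calls from 1184 lower and 984 higher to 764 and 934, and those of siRNA 28 from 868 and 1086 to 743 and 735, with 4 members lower for each siRNA. Both comparisons use the same control libraries. NFE2L2 was -3.42 ± 0.305 with siRNA 28 and -3.05 ± 0.305 with siRNA 30 (limma adjusted p = 5.41e-05 and 0.000106). KEAP1 was -1.24 ± 0.180 and -1.12 ± 0.180 (adjusted p = 0.00150 and 0.00263). SQSTM1 was -1.96 ± 0.189 and -2.62 ± 0.189, and MAFG was -1.80 ± 0.132 and -1.22 ± 0.132, with adjusted p of 9.26e-05, 9.38e-06, 9.27e-06 and 0.00019 in that order. CUL3 had -0.014 ± 0.120 with siRNA 28 and passed with siRNA 30 at -0.39 ± 0.120 (adjusted p = 0.0430), a call kept only without H460 control replicate 0 or the H460 siRNA 28 library among 12 fits that left out 1 library, with an adjusted p of up to 0.139. It was also lost with both rescalings, at 0.181 without mitochondrial transcripts and 0.0733 by median of ratios, and with no filter on low FPKM (0.0723). MAFK had -0.64 ± 0.227 with siRNA 28 (adjusted p = 0.0699) and -0.10 ± 0.227 with siRNA 30 (adjusted p = 0.771). Without H460 control replicate 1 the siRNA 28 value was -0.79 and passed (adjusted p = 0.0233).

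**Figure D4:**
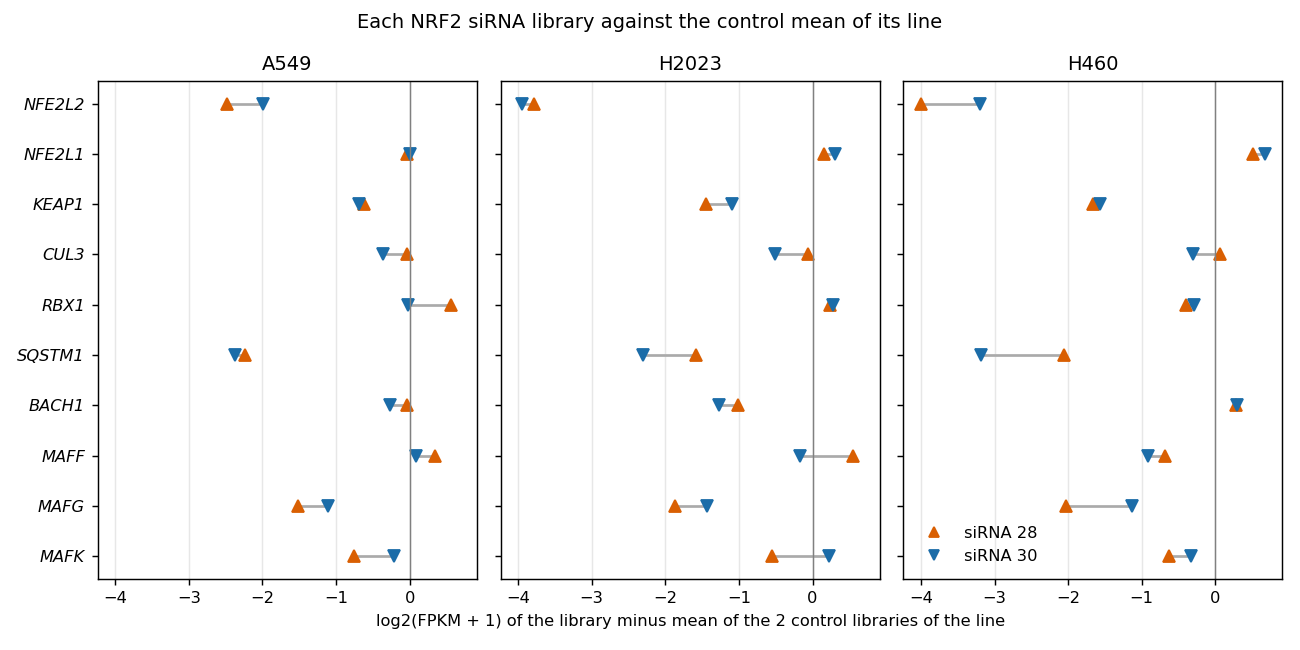
Each NRF2 siRNA library minus the mean of the 2 controls of its line, on the log2(FPKM + 1) scale, by gene and line; grey bars join siRNA 28 and siRNA 30. SQSTM1 is lower with siRNA 30 and MAFG lower with siRNA 28 in all 3 lines.

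The 2 siRNAs were also compared directly in the 6 NRF2 siRNA libraries, where limma called 0 of 9 members, against 0.527% of all genes in either direction, and 4 members had an unadjusted p under 0.05. In every line siRNA 28 is replicate 0 and siRNA 30 replicate 1, so reagent and replicate number cannot be told apart. SQSTM1 was 0.66 ± 0.202 higher with siRNA 28 (95% interval 0.18 to 1.15, adjusted p = 0.135) and higher in 3 of 3 lines. Among controls SQSTM1 was also higher in replicate 0 than in replicate 1 in H2023 and H460, and lower in A549. MAFG was 0.58 lower with siRNA 28, at -0.58 ± 0.170 (interval -0.99 to -0.17, adjusted p = 0.127), and MAFK was lower at -0.54 ± 0.145 (interval -0.89 to -0.19, adjusted p = 0.109), each in 3 of 3 lines. CUL3 was 0.37 ± 0.131 higher with siRNA 28 (interval 0.060 to 0.69, adjusted p = 0.163). The target NFE2L2 had -0.38 ± 0.218 with an interval from -0.90 to 0.15, and KEAP1 -0.13 ± 0.144 with an interval from -0.47 to 0.22, and neither passed (adjusted p = 0.359 and 0.641).

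The genes around this circuit were read from lists of their known partners, by their average effect over lines beside a median of -0.014 for all 11571 genes, of which 14.5% were called lower and 15.2% higher. A count near these shares is no result about its list, and only the values of the named genes are given by it. Of 7 further genes of the CUL3 ligase and its neddylation, 2 fell and 0 rose, with a median of -0.27. These were NAE1, a subunit of the NEDD8-activating enzyme (-0.55 ± 0.103, limma adjusted p = 0.00352), and UBE2M, a NEDD8-conjugating enzyme (-0.37 ± 0.109, adjusted p = 0.0270). Tested by line, 0 of 7 passed in A549 and in H2023 and 1 of 7 in H460, against 6.86% of all genes there. NAE1 was at -0.34 in A549 and -0.24 in H2023 (limma adjusted p = 0.379 and 0.511). Of 10 genes of other NRF2 degradation routes, such as the SCF ligase, 1 fell, near the 14.5% of all genes, and 0 rose. The gene that fell was SKP1 (-0.39 ± 0.0975, limma adjusted p = 0.0143). Of 10 other proteins that bind KEAP1, 4 fell and 1 rose, with MCM3 at -0.69, PTMA at -0.83 and PGAM5 at -0.58 on the log2 scale. In single lines these 3 passed in H460, at -1.64, -1.68 and -1.51, and 0 genes of the list passed in A549 or H2023, where PGAM5 had -0.11 and -0.13 and MCM3 had 0.086 in H2023. The gene that rose, named after its value was seen, was TSC22D4 (0.49 ± 0.155, limma adjusted p = 0.0370). Of 11 autophagy partners of SQSTM1, 1 fell and 2 rose: TBK1, a kinase of autophagy receptors, was at -0.38, GABARAP, an ATG8 protein, at 0.52 (adjusted p = 0.00270), and NBR1, a receptor related to SQSTM1, at 0.49 (adjusted p = 0.00469). By line, 0 of 11 passed in A549, in H2023 or in H460.

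The BACH1 and heme list held 6 genes, of which 4 fell and 1 rose, with a median of -0.77. HMOX1, the heme oxygenase repressed by BACH1 and induced by NRF2, averaged 79.9 FPKM in A549 controls and 12.4 after NRF2 siRNA. The H2023 means were 37.8 and 13.9 FPKM, and those of H460 33.0 and 6.50 FPKM. Its average difference was -2.07 ± 0.159 (limma adjusted p = 2.82e-05). FECH, which inserts iron into protoporphyrin to make heme, was at -1.05, and BLVRB, a biliverdin reductase, at -1.13. The 6 NRF2 score genes, a list the study uses for NRF2 activity in tumours, all fell, with GCLC and GCLM, the subunits of glutamate-cysteine ligase, at -2.47 and -3.29 and NR0B1, a nuclear receptor corepressor, at -3.57; this list is not independent evidence of direction. Among 30 proteasome subunits, the targets of NFE2L1, 10 fell and 0 rose, with a median of -0.24 and PSMD11 at -0.77, PSMD7 at -0.55 and PSMA5 at -0.51. In single lines 0 of 30 passed in A549 and in H2023, and 3 of 30 in H460, against 6.86% of all genes there. In the list of NFE2L1 processing, 1 of 6 fell, VCP at -0.49, and of 9 coactivators and corepressors 2 fell, NCOA3 at -0.49 and RXRA at -0.40, both counts near the 14.5% of all genes. Only 1 of 7 other CNC and large MAF factors, NFE2L3, was expressed enough to be tested in all lines, and it was not called. Of 5 epithelial markers tested, 3 rose, KRT18 by 0.60, KRT8 by 0.78 and KRT7 by 0.51 on the log2 scale, which moved with the treatment. Named after their values were seen, CDH1, an epithelial cadherin, rose in H2023 from 8.05 and 12.6 FPKM to 58.3 and 65.0 (2.50 ± 0.243, limma adjusted p = 0.0280), and COL1A1, a collagen of stroma, rose in H460 from 1.81 and 2.06 FPKM to 5.81 and 5.94 (1.23 ± 0.259, adjusted p = 0.0329). CDH1 was the 1 of 6 epithelial markers called in H2023, against 0.327% of all genes called higher there. In A549 and H460 0 epithelial markers were called, and CDH1 was at 0.16 in A549 (limma adjusted p = 0.794). COL1A1 was 1 of 3 blood, vessel and stroma markers tested in H460, against 7.12% of all genes called higher. The part of cell state in the values of the members was not tested.

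The genes most like each member called in at least 1 line, over the 12 libraries and by Pearson correlation of log2 values centred on each line, were found among the 11571 tested in every line. For NFE2L2 these were NMRAL2P, GSR and LUCAT1 (r = 0.993, 0.992 and 0.989), and for KEAP1 they were AIFM2, LRP8 and FBXO30 (r = 0.989, 0.986 and 0.985). For SQSTM1 they were TKT, CEP20 and GCLC (r = 0.989, 0.988 and 0.985), and for MAFG FTL, GLA and L3HYPDH (r = 0.989, 0.988 and 0.988). Among the members, NFE2L2 had r = 0.968 with KEAP1, 0.972 with MAFG and 0.912 with SQSTM1, and -0.571 with NFE2L1. Centred on each line, the 12 libraries fall into treated and control groups, so these values are a description, with no test.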

How the data were processed

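By the study's methods section, paired-end reads were aligned by the authors to hg19 with TopHat, and FPKM came from Cufflinks; the submitters' processing notes instead name STAR 2.5.3a, Cuffnorm, HTSeq and DESeq2 with GRCh37.p13, and which of them made these files was not settled. The authors deposited FPKM per gene and library. They also deposited a table per line whose mean normalised count, a signal averaged over libraries, was used only as a guide to depth, and whose fold changes and p-values were not used. Symbols were matched for 96.1% of identifiers, and loci come from GENCODE on GRCh37. Values under 1e-06 were set to 0. limma 3.58.1 (R 4.3.3), with a prior variance that followed mean expression, was run on log2(FPKM + 1), where the pseudocount of 1 understates changes of low genes. Genes needed 1 FPKM in 2 of the 4 libraries of a line, or of every line for fits of all lines, and the threshold was an adjusted p of 0.05. The fits were tested on simulated data. All 10 members were named in every comparison, with up to 3 genes of each list that had the smallest p in the average effect and the 3 genes most like each member called in a line. The members and lists were chosen with earlier results of these data known. Alternatives covered the pseudocount, filters, scaling, trend, replicate block and left-out libraries. Protein sequences and siRNA sequences were not used here. PSMB3 and PECAM1 matched no symbol.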

Additional observations from a re-analysis of the deposited data

Results flagged for a closer look

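A difference in effect between lines passed a test for KEAP1, in 1 contrast of lines, and for BACH1. The F test over the 3 lines did not pass for KEAP1 (limma adjusted p = 0.0775). The effect of NRF2 siRNA on KEAP1 in H460 minus that in A549 was -0.96 on the log2(FPKM + 1) scale (limma adjusted p = 0.0474), and both lines moved lower in 2 of 2 NRF2 siRNA libraries; A549 and H460 also differ in library preparation, which cannot be told apart from the line. The KEAP1 call was lost in 9 of 12 fits that left out 1 library, with both rescalings (0.147 and 0.0567), with no trend (0.0605) and with the replicate block (0.0695). For BACH1 the F test over the 3 lines had an adjusted p of 0.0327, and the effect in H460 minus that in H2023 was 1.43 (adjusted p = 0.0196), with BACH1 above both controls in 2 of 2 H460 libraries and below both in 2 of 2 H2023 libraries. The F test lost its call in 9 of 12 fits that left out 1 library, at up to 0.108, and with the replicate block (0.0619), and the contrast lost its call in 3 of 12.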

How the results depend on the processing

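Of 1750 repeats of the single-gene values under alternatives, over 111 values, 1572 kept direction and side of the threshold. With the sign kept, 77 lost a call and 27 gained one, and 74 changed sign. None of the sign changes, 0 of 74, touched a value that had passed, and the largest such value was 0.479 in size. A sign change of MAFK in controls of H460 minus H2023, to -0.63 without H460 control replicate 0, ended past the threshold. The cause of the changes below was not tested, except that the fit without a filter tests more genes.

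Without a filter on low FPKM, limma called 0 members lower in each line (4, 5 and 4 had an unadjusted p under 0.05 in A549, H2023 and H460), and NFE2L2 kept -2.24, -3.86 and -3.60 with adjusted p of 0.235, 0.165 and 0.113. In H2023 1 member, with MAFG lost, was lower with the pseudocount of 0.1, with rescaling without mitochondrial transcripts and with no trend, and 5 were lower in the 12-library fit, where 1 member, NFE2L1, was higher in H460. In controls of H460 against H2023, 0 members were higher with the pseudocount of 0.1, no filter, either rescaling or the 12-library fit (0 or 1 at an unadjusted p under 0.05).

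Replicate numbers were checked for pairing by correlating deviations of same-numbered libraries from their group means: r reached -0.032 for A549, 0.31 for H2023 and 0.16 for H460, and no label ties a number to a shared batch or day, so the samples were taken to share only a number. The correlations of H2023 and H460, and the mitochondrial share, which was higher in replicate 1 of both groups in both lines, leave pairing within those lines unsettled. With the replicate block, calls over all genes went from 128 to 711 in H2023 and from 1879 to 3177 in H460, 5 members, with KEAP1, SQSTM1 and BACH1 added, were lower in H2023 and 0 were called for a difference between lines (3 at an unadjusted p under 0.05), with BACH1 at an adjusted p of 0.0619.

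Where a left-out library leaves 1 in its group, that library is assumed to vary like the others. Leaving out 1 library at a time, members called lower ranged from 1 to 3 in A549, 0 to 5 in H2023 and 0 to 4 in H460, members higher in the average from 0 to 1, and members called for a difference between lines from 0 to 2. In controls of H460 against H2023 they ranged from 1 to 3 lower and 0 to 3 higher. NFE2L2 ranged from -2.49 to -1.999 in A549, -3.95 to -3.78 in H2023 and -4.00 to -3.20 in H460. Values that changed sign ranged from -0.11 to 0.080 for NFE2L1 in A549, -0.028 to 0.56 for RBX1 in A549, -0.17 to 0.55 for MAFF in H2023, -0.55 to 0.22 for MAFK in H2023, -1.12 to 0.17 for MAFK in H460, -0.30 to 0.065 for CUL3 in H460 and -0.038 to 0.16 for RBX1 on average. Against controls, CUL3 ranged from -0.069 to 0.020 and RBX1 from -0.081 to 0.35 with siRNA 28, and RBX1 from -0.14 to 0.064 and MAFK from -0.25 to 0.070 with siRNA 30, while siRNA 28 minus siRNA 30 was -0.071 to 0.28 for RBX1. In controls of H460 minus H2023, NFE2L2 ranged from -0.26 to 0.27, RBX1 from -0.046 to 0.11, CUL3 from -0.27 to 0.090 and MAFK from -0.63 to 0.67. The MAFK ends were those without H460 control replicate 0 and without replicate 1, and both lay past the threshold, with opposite signs. For the effect in H460 minus A549, CUL3 ranged from -0.10 to 0.26, MAFK from -0.65 to 0.65, MAFG from -0.71 to 0.18 and SQSTM1 from -0.88 to 0.26. For H460 minus H2023, NFE2L2 ranged from -0.14 to 0.67, CUL3 from -0.050 to 0.39, MAFG from -0.37 to 0.52 and MAFK from -0.96 to 0.33. For H2023 minus A549, CUL3 ranged from -0.31 to 0.13, RBX1 from -0.30 to 0.28 and MAFK from -0.076 to 0.70.

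With rescaling without mitochondrial transcripts, CUL3 turned to 0.031 in H460 and 0.00078 with siRNA 28, RBX1 to 0.062 with siRNA 30, and the controls of H460 minus H2023 to -0.21 for NFE2L2, -0.16 for RBX1, -0.0099 for MAFG and -0.19 for MAFK. The effect in H460 minus A549 turned to 0.25 for MAFK, and that in H2023 minus A549 to 0.10 for CUL3 and 0.19 for RBX1. With median-of-ratios rescaling, CUL3 turned to 0.0062 with siRNA 28, RBX1 to 0.035 with siRNA 30, the controls of H460 minus H2023 to -0.097 for NFE2L2, -0.062 for RBX1 and -0.085 for MAFK, and the effect in H460 minus A549 to 0.11 for MAFK. With the pseudocount of 0.1, RBX1 in H2023 minus A549 turned to 0.0088.

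Over all genes, calls moved from 94, 128 and 1879 in A549, H2023 and H460 to 0 in each without a filter, to 711 in H2023 with the block and to 3850 in H460 in the 12-library fit, and leaving out 1 library gave 41 to 272, 0 to 1532 and 0 to 3128. The difference between lines called 290 genes and 3 to 843 under alternatives, and the direct siRNA comparison 61 and 0 to 585. Calls with siRNA 28 numbered 1954 and 436 to 2578 under alternatives, those with siRNA 30 numbered 2168 and 614 to 2277, and H460 against H2023 controls gave 6857 and 3223 to 6812. Rescaling without mitochondrial transcripts moved calls of lower and higher genes from 198 and 164 to 38 and 295 for H460 minus A549, from 234 and 150 to 80 and 121 for H460 minus H2023, from 13 and 48 to 297 and 288 for siRNA 28 minus siRNA 30, and from 3404 and 3453 to 4278 and 2494 for the controls. Median-of-ratios rescaling gave 147 and 233 for H460 minus A549 and 182 and 210 for H460 minus H2023. With 2 libraries per group, missed thresholds say little about stability.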
